A study of Homo sapiens with 12 samples.

Results

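ATF4, DDIT3, TRIB3, ASNS, CHAC1, SESN2 and DDIT4 are 7 genes of the integrated stress response, and the chromatin around their start sites was described from ChIP-seq peak lists. The members are the deposited peaks of 10 ChIP libraries that overlap the 10 kb on either side of an hg19 start site of each gene. There were 201 such peaks among 1569855 in the 10 lists, and 109 of the 201 had a q of 0.05 or less, against 385916 in all lists. The start sites lie at position 39916569 of chromosome 22 for ATF4, 57914300 of chromosome 12 for DDIT3, 361308 of chromosome 20 for TRIB3 and 97501854 of chromosome 7 for ASNS. Those of CHAC1, SESN2 and DDIT4 lie at 41245636 of chromosome 15, 28585963 of chromosome 1 and 74033677 of chromosome 10. DDIT3 and ASNS are on the minus strand, and distances are given along each gene, with negative values upstream.

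The cells were Huh7, a human hepatocellular carcinoma line, in which a triple FLAG tag and a blasticidin resistance gene had been placed at the stop codon of the VPS72 gene by Cas9 cutting and repair. VPS72, or YL1, holds the histone variant H2A.Z within 2 chromatin remodelling complexes, SRCAP and TIP60. VPS72 overexpression cells received lentivirus carrying VPS72-FLAG and control cells lentivirus named lenti-HA, an empty vector, each for 24 h. Each condition had 1 library per antibody (FLAG, H3K4me1, H3K27ac, H2A.Z and its acetylated form, H2A.Zac) and 1 from input DNA, which makes 12. Both conditions carry the tagged VPS72 allele. FLAG therefore marks endogenous VPS72 in control cells, and endogenous and lentiviral VPS72 together with overexpression. Resistant colonies were grown up and genotyped, but the labels give neither the number of clones used nor the promoter of the lentiviral gene. With 1 library per group, no difference below has a replicate check or a test, and the intervals cover counting error only.

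In the integrated stress response, kinases that sense amino acid shortage, unfolded proteins, double-stranded RNA or haem shortage phosphorylate the translation factor eIF2-alpha. Bulk translation falls while the ATF4 mRNA is translated more, and ATF4, often paired with C/EBP proteins or CHOP, binds composite elements in its target genes. Liver cells use the pathway in adapting to amino acid shortage and to stress in the endoplasmic reticulum. H2A.Z sits in the nucleosomes beside start sites, its acetylated form and H3K27ac mark active promoters and enhancers, and H3K4me1 marks enhancers and the flanks of promoters.

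The upstream sequences of 3 members are shown because they hold the ATF4-type or AP-1 element described after them. They are the 250 bases before the first listed start of each gene in RefSeq on GRCh38.p14, read 5′ to 3′ on the strand of the gene. Capitals mark the composite C/EBP-ATF response element, the AP-1 element and the NF-Y box. The windows are 7:97872409-97872658 on the minus strand for ASNS, 15:40953221-40953470 on the plus strand for CHAC1 and 12:57520515-57520764 on the minus strand for DDIT3.
ASNS: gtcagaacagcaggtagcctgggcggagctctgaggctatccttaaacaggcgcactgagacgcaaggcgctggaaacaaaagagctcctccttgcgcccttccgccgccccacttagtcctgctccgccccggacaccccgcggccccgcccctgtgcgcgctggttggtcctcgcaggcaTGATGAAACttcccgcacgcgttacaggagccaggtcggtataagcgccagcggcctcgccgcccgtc
CHAC1: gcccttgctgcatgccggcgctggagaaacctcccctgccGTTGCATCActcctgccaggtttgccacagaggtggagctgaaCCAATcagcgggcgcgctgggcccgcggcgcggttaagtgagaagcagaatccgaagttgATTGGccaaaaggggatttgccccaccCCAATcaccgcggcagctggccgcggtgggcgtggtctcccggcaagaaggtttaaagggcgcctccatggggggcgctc
DDIT3: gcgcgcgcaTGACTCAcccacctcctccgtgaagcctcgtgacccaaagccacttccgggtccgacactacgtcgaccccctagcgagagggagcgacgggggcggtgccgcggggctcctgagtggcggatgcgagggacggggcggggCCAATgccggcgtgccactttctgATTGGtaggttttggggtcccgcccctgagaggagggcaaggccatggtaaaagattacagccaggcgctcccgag
All 7 genes were matched to the table, which held 27305 promoters. The composite element was searched as TGATGNAAN, the cyclic AMP response element as TGACGTCA, the AP-1 element as TGANTCA and the NF-Y box as CCAAT, on both strands. The composite element was found in 2 of the 7 windows, against 3.18% of all promoters. In ASNS it read TGATGAAAC, from 68 to 60 bases before the listed start, and in CHAC1 it lay on the opposite strand and read GTTGCATCA, from 202 to 210 bases before it. An AP-1 element, TGACTCA, stood 241 to 235 bases upstream in DDIT3 alone among the 7, against 6.6% of all promoters. CCAAT was present in 4 of 7 windows (DDIT3, CHAC1, SESN2 and DDIT4), against 33% of all, and the cyclic AMP response element in 0 of 7, against 1.77%. None of the matches of different motifs overlapped. The windows of the 7 genes held 58.4 to 78.8% G and C, lowest in ATF4 and highest in TRIB3, and the median over all promoters was 58%. A match describes letters in these windows only. The sequences are on another build than the peaks, so no distance between an element and a peak is given.

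Across the 7 windows, peaks numbered 17 with VPS72 overexpression and 19 in the control for FLAG, and 14 with overexpression and 20 in the control for H2A.Z. For H2A.Zac they numbered 23 with overexpression and 21 in the control, for H3K27ac 14 in each, and for H3K4me1 32 with overexpression and 27 in the control. SESN2 held the most peaks with overexpression (24, against 21 in the control) and TRIB3 the most in the control (24, against 19 with overexpression). ASNS held the fewest in both conditions, 7 with overexpression and 4 in the control. All 4 histone antibodies gave more peaks per Mb in the 7 windows than in the genome as a whole. Windows at other gene starts were not counted, so whether this is particular to these genes was not tested. For H2A.Zac the values were 164.3 per Mb against 24.44 with overexpression, and 150 against 26.77 in the control. Over all deposited peaks, FLAG was less dense in the windows than in the genome with overexpression, at 121.4 against 181.8 per Mb. In the control it was denser, at 135.7 against 60.64 per Mb. With overexpression, 4 of 17 FLAG peaks in the windows had a q of 0.05 or less, and 47430 of 557384 in all. In the control 5 of 19 did in the windows, and 70170 of 187232 in all. The share passing with overexpression was larger in the windows, so the lower density there describes the full list only. Densities at that limit were not computed. The recovered depth of the 4 histone libraries was 20.4 to 25.02 M (mega) reads with overexpression and 17.9 to 22.6 M in the control. The FLAG libraries had 3.07 M reads with overexpression and 4.38 M in the control, so their peaks near the 7 genes rest on 1 to 10 reads. The input lists held 814 peaks with overexpression and 810 in the control, and 0 in either lay within 10 kb of these genes.

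**Figure D1:**
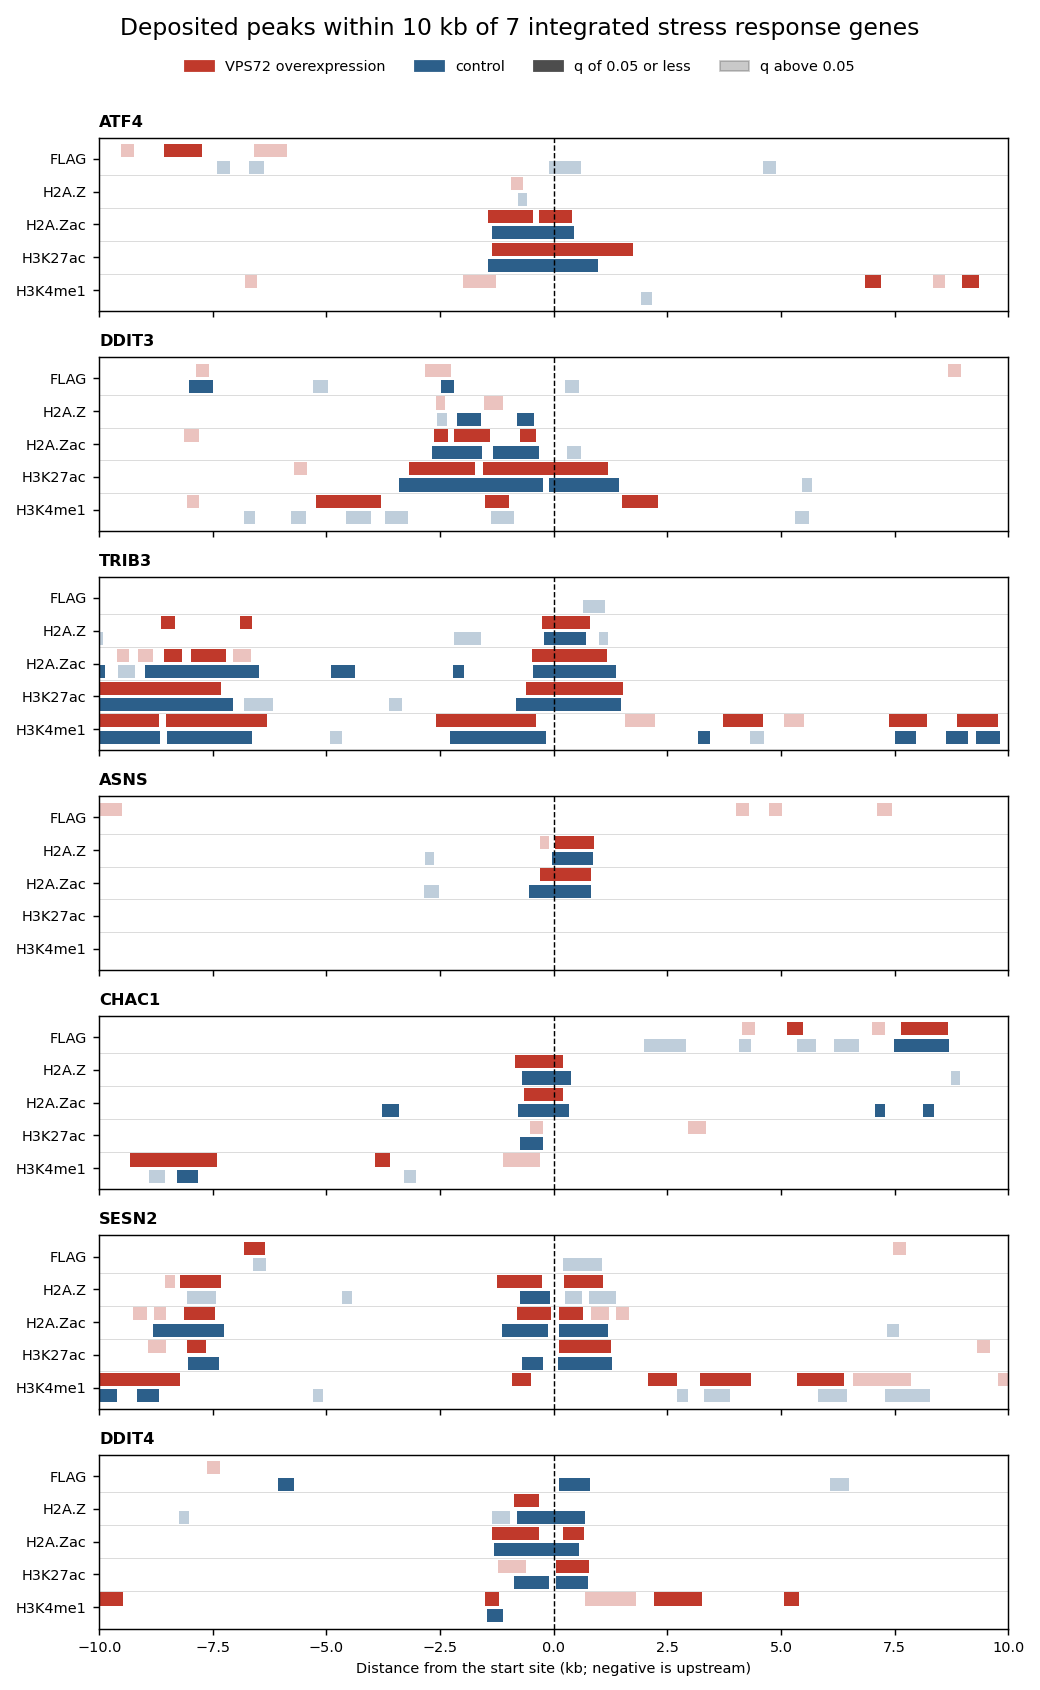
Deposited peaks within 10 kb of the start site of each gene, with distance from the start in kb on the horizontal axis (negative is upstream) and 1 row per antibody, VPS72 overexpression (red) above control (blue); bars span the peak and pale bars have a q above 0.05. H2A.Zac and H3K27ac cluster at the starts and again far upstream of TRIB3 and SESN2, no H3K27ac or H3K4me1 bar stands in the ASNS window in either condition, and no H3K4me1 bar crosses a start.

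Promoters were taken as 1 kb on either side of the start. An H2A.Zac peak lay there in 7 of 7 genes in both conditions, each with a q of 0.05 or less. H2A.Z peaks were found at 6 promoters with overexpression and 7 in the control, and H3K27ac peaks at 6 in either condition. H3K4me1 peaks reached 5 promoters with overexpression and 2 in the control, and within 2 kb of the start 6 genes with overexpression and 4 in the control. FLAG peaks lay at 0 promoters with overexpression and 5 in the control. The start base itself was covered by H2A.Zac at 4 genes with overexpression and 5 in the control, by H3K27ac at the same 3 genes in both (ATF4, DDIT3 and TRIB3), and by H3K4me1 at 0 in either. At SESN2, peaks of H2A.Z, H2A.Zac and H3K27ac lay on both sides of the start in the control and none of these covered it.

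Below, the height of a peak is its summit read count divided by the mean count per base of the library. The strongest peak of each list within the promoter, ranked by its q, stands for the gene. A ratio is the height with overexpression over that in the control, and brackets hold its exact 95% interval from the reads.

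ATF4, the transcription factor that drives the response, had the lowest H2A.Z summits of the promoters with a peak. Its H2A.Z height was 6.09 (10 reads) with overexpression and 5.01 (7 reads) in the control, both with a q above 0.05. In contrast, its H2A.Zac height was 11.2 (25 reads) with overexpression and 23.7 (46 reads) in the control, and the control value was the highest of the 7 genes in that library. The 1 control peak of 1802 bp stood where the overexpression list had 2 peaks, of 979 and 715 bp, and the ratio of the strongest summits was 0.472 (0.278 to 0.785). H3K27ac at ATF4 reached 23.8 (51 reads) with overexpression and 36.9 (69 reads) in the control, a ratio of 0.645 (0.440 to 0.940). The peak caller's local background there, on the same scale, was 1.10 with overexpression and 1.81 in the control, and the authors' deposited fold over it was 14.8 with overexpression and 15.5 in the control. The lower H3K27ac height at ATF4 was thus nearly absent from the fold. For H2A.Z at ATF4, the deposited fold was 3.64 with overexpression and 1.67 in the control. Local background can be equal across antibodies of a condition: at ASNS in the control it was 1.15 for both H2A.Z and H2A.Zac. Whether it reflects the H3K27ac library or another library was not tested. No H3K4me1 peak lay at this promoter in either condition. Its strongest H3K4me1 peak with overexpression was 9148 bp downstream, with a height of 5.35 (11 reads), and no control peak overlapped it.

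DDIT3, which encodes the C/EBP family factor CHOP, had an H2A.Z peak within 1 kb of its start in the control list, at a height of 7.87 (11 reads), with its summit at -621 bp. With overexpression the nearest began just beyond that limit, with its summit at -1236 bp, a height of 4.88 (8 reads) and a q above 0.05, and within 2 kb all 7 genes had H2A.Z in both lists. Among all control H2A.Z peaks, 84.9% had no overlapping peak with overexpression, and among those with a q of 0.05 or less, as here, 39.5%. H2A.Zac at the promoter reached 7.61 (17 reads) with overexpression and 10.3 (20 reads) in the control, a ratio of 0.738 (0.363 to 1.48). H3K27ac covered the start in both lists, with a height of 19.6 (42 reads) with overexpression and 36.3 (68 reads) in the control. Its ratio of 0.539 (0.358 to 0.803) was the lowest of the 6 genes with H3K27ac in both. The deposited fold ran the same way, 9.17 with overexpression and 18.1 in the control.

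A second cluster had its H3K27ac summit at -2448 bp with overexpression, and at -2456 bp in control cells, on the side where MBD6 is the next gene in the RefSeq table. H3K27ac there had a height of 19.1 (41 reads) with overexpression and 24.0 (45 reads) in the control. H2A.Zac had 11.2 (25 reads) with overexpression and 16.5 (32 reads) in the control, more than at the DDIT3 start in both conditions. The 2 neighbours share this interval, and peaks there cannot be told apart as belonging to either gene. H3K4me1 near the promoter reached 5.35 (11 reads) with overexpression and 5.58 (10 reads) in the control, a ratio of 0.960 (0.370 to 2.52).

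TRIB3, a pseudokinase induced by ATF4 and CHOP that binds AKT, carried the highest H3K27ac of the 7 genes. Its height was 40.6 (87 reads) with overexpression and 61.5 (115 reads) in the control, a ratio of 0.660 (0.494 to 0.880). By q this peak ranked 185 of 77213 with overexpression and 250 of 65070 in the control, so it was among the strongest of either list. The local background was 1.64 with overexpression and 3.02 in the control, and the deposited fold of 18.8 with overexpression stood above the 17.1 of the control. Height and fold therefore give opposite directions for H3K27ac at TRIB3. H2A.Zac was 17.5 (39 reads) with overexpression and 18.6 (36 reads) in the control, with a ratio of 0.941 (0.583 to 1.52), the nearest to 1 of the 7. Its deposited fold was 8.21 with overexpression and 7.79 in the control, so the direction of H2A.Zac turns there too. H2A.Z was 10.4 (17 reads) with overexpression and 7.87 (11 reads) in the control, a ratio of 1.32 (0.582 to 3.11). Its deposited fold was 4.81 with overexpression and 3.12 in the control.

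Among H3K4me1 peaks that reach into a promoter, that of TRIB3 was also the highest. Its height was 14.1 (29 reads) with overexpression and 10.0 (18 reads) in the control, a ratio of 1.41 (0.755 to 2.69). The summits lay 1304 bp apart, at -1827 bp with overexpression, beyond 1 kb, and at -523 bp in the control. A taller H3K4me1 peak, on the side of NRSN2, had its summit at -7956 bp with overexpression, in 20:352784-354999, and at -7929 bp in the control. Its height was 21.9 (45 reads) with overexpression and 12.3 (22 reads) in the control, a ratio of 1.78 (1.05 to 3.12). It ranked 57 of 155862 with overexpression and 1122 of 125116 in the control. The same stretch carried H3K27ac, with a height of 22.4 (48 reads) in a peak of 2687 bp with overexpression and 30.5 (57 reads) in one of 4152 bp in the control. H3K4me1 was thus higher and H3K27ac lower with overexpression in that stretch, each in the direction of its whole library, as given below.

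ASNS encodes asparagine synthetase, a textbook ATF4 target. It carried H2A.Z at its start, with a height of 7.31 (12 reads) with overexpression and 10.0 (14 reads) in the control, and both summits fell on the same base, 241 bp into the gene. H2A.Zac reached 11.6 (26 reads) with overexpression and 13.9 (27 reads) in the control, a ratio of 0.837 (0.469 to 1.49). Its H2A.Z in the control and its H2A.Zac with overexpression were each the second highest of the 7 genes. In the other condition it ranked lower for each mark. With overexpression its H2A.Z was below that of TRIB3, SESN2 and CHAC1, and in the control its H2A.Zac was below that of ATF4, TRIB3 and CHAC1. No list of H3K27ac or H3K4me1 held a peak within 10 kb of ASNS. The lowest H3K27ac summit in the whole list was 2.33 with overexpression and 2.67 in the control. FLAG peaks near ASNS numbered 4 with overexpression, of 1 or 2 reads each, and 0 in the control.

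CHAC1 degrades glutathione and is induced by ATF4. Its H2A.Z was close in the 2 lists, 7.92 (13 reads) with overexpression and 7.87 (11 reads) in the control, a ratio of 1.01 (0.416 to 2.48). H2A.Zac was 8.51 (19 reads) with overexpression and 18.6 (36 reads) in the control, a ratio of 0.458 (0.248 to 0.821) and the lowest of the 7. The deposited fold was likewise lower, 5.83 with overexpression and 12.0 in the control. H3K27ac was weak, with a height of 4.20 (9 reads, q above 0.05) with overexpression and 5.34 (10 reads) in the control, a ratio of 0.785 (0.282 to 2.15). CHAC1 thus combined a clear H2A.Zac peak with the lowest H3K27ac of the 6 genes that had any. An H3K4me1 peak with its summit at -8144 bp with overexpression, and at -8086 bp in control cells, on the side of DLL4, had a height of 7.30 (15 reads) with overexpression and 8.93 (16 reads) in the control, a ratio of 0.818 (0.377 to 1.77). The highest FLAG summit of all 7 windows lay 8436 bp downstream of the CHAC1 start, at 15:41253286-41254319 in the overexpression list. Its height was 24.3 (8 reads) with overexpression and 21.9 (10 reads) in the control, a ratio of 1.11 (0.380 to 3.12).

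SESN2 and DDIT4 (REDD1) are stress-induced inhibitors of mTORC1. At SESN2, H2A.Z was 8.53 (14 reads) with overexpression and 11.5 (16 reads) in the control, a ratio of 0.745 (0.337 to 1.63). H2A.Zac was 9.40 (21 reads) with overexpression and 12.9 (25 reads) in the control, a ratio of 0.730 (0.388 to 1.36). H3K27ac was 10.7 (23 reads) with overexpression and 13.4 (25 reads) in the control, a ratio of 0.803 (0.435 to 1.47). All 3 marks were lower with overexpression, by less than the counting error. H3K4me1 had a promoter peak with overexpression and none in the control, with its summit at -740 bp and a height of 6.81 (14 reads).

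SESN2, like DDIT3, had more H2A.Zac away from its start than at it, in both conditions. The peak with its summit at -7874 bp, at 1:28577826-28578519 in the overexpression list, had a height of 14.8 (33 reads) with overexpression and 21.1 (41 reads) in the control, a ratio of 0.699 (0.428 to 1.13). It lies on the side of ATP5IF1, the next gene in the RefSeq table. H3K27ac in that place was 6.06 (13 reads) with overexpression and 8.55 (16 reads) in the control, and H2A.Z was 8.53 (14 reads) with overexpression and 5.73 (8 reads) in the control. FLAG with its summit at -6603 bp was 21.2 (7 reads) with overexpression and 8.77 (4 reads) at -6428 bp in the control. By height, H2A.Z and FLAG were higher and both acetyl marks lower with overexpression around the SESN2 upstream cluster, on counts of 41 reads or fewer. The control peaks of H2A.Z and FLAG there had a q of 0.515 and 0.435. FLAG peaks did not overlap the H2A.Zac peak, and no interval is given for H2A.Z, H3K27ac or FLAG there.

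At DDIT4, H2A.Z was 6.70 (11 reads) with overexpression and 7.16 (10 reads) in the control, a ratio of 0.937 (0.361 to 2.46). H2A.Zac was 7.16 (16 reads) with overexpression and 10.8 (21 reads) in the control, a ratio of 0.662 (0.323 to 1.33). H3K27ac was 7.93 (17 reads) with overexpression and 8.55 (16 reads) in the control, a ratio of 0.927 (0.440 to 1.96). These are among the lowest heights of the 7 genes for each mark. The 1 H2A.Zac peak of 1858 bp across the DDIT4 start in the control stood as 2 peaks, of 1036 and 460 bp, with overexpression. An H3K4me1 peak touched the promoter with overexpression, at 5.35 (11 reads, q above 0.05) with its summit at 1278 bp. The control had a peak of 6.14 (11 reads, q of 0.05 or less) just outside the promoter, at -1301 bp, where the overexpression list had 4.38 (9 reads) at -1366 bp.

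**Figure D2:**
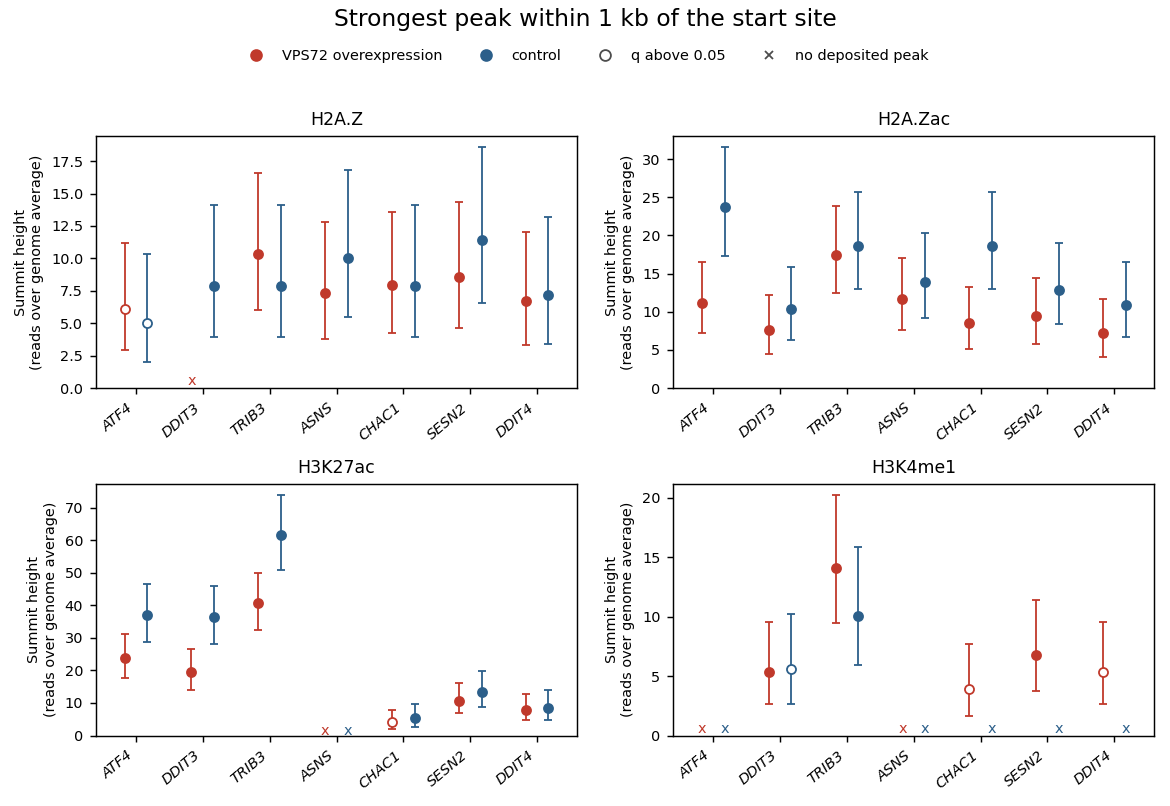
Summit height of the strongest promoter peak (vertical axis, summit reads divided by the genome average) for each gene and histone antibody, VPS72 overexpression (red) left of control (blue); bars are exact Poisson 95% intervals on the reads, open circles have a q above 0.05 and a cross means no deposited peak. H3K27ac ranges from 4.20 at CHAC1 to 40.6 at TRIB3 with overexpression and from 5.34 to 61.5 in the control, and every H2A.Zac circle is lower with overexpression, where by the deposited fold TRIB3 is higher. Of all regions with an H2A.Zac peak in both lists, 94.4% were lower.

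Over the promoters with a peak in both lists, the height of H2A.Zac was lower with overexpression at 7 of 7 genes and that of H3K27ac at 6 of 6, though TRIB3 was higher for both by the deposited fold. H2A.Z was lower at 3 of 6 and higher at the other 3. Of all regions with a peak in both lists, 94.4% were lower for H2A.Zac, 86.5% for H3K27ac and 63.7% for H2A.Z. The median ratio was 0.730 for H2A.Zac, 0.720 for H3K27ac and 0.971 for H2A.Z. The same ratio over all regions with a peak in both lists had a median of 0.652 in 30014 regions for H2A.Zac, 0.751 in 23176 for H3K27ac and 0.908 in 17877 for H2A.Z. For H2A.Zac and H3K27ac, the median over the genes lay below 1, as did that of the library. The log2 median of H2A.Z over the genes was -0.04, and 0.01 with the deposited fold or over local background. H2A.Zac was lower by 1.5-fold or more at 3 of 7 genes (ATF4, CHAC1 and DDIT4), and 52.7% of all regions were lower by that much. With the deposited fold or over local background, CHAC1 and DDIT3 passed 1.5-fold and ATF4 and DDIT4 did not. For H3K27ac, 3 of 6 genes passed 1.5-fold lower (ATF4, DDIT3 and TRIB3), against 30.4% of all regions and 22.2% of the 2320 regions with the highest mean. By either of the other measures DDIT3 alone passed. For H2A.Z, 0 of 6 genes passed 1.5-fold in either direction by height, and 15.2% of regions were lower and 5.97% higher by that much. With the deposited fold or over local background, ATF4 and TRIB3 passed 1.5-fold higher for H2A.Z. Their log2 ratios were 1.12 and 0.62 with the fold, and 1.43 and 0.69 over local background. The shares of all regions by those 2 measures were not computed.

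Intervals of the height ratio lay wholly below 1 at 2 of 7 genes for H2A.Zac (ATF4 and CHAC1) and at 3 of 6 for H3K27ac (ATF4, DDIT3 and TRIB3). The share of all regions with such an interval was not computed, so these counts have no background beside them. Over local background, the H3K27ac log2 ratio was above 0 at ATF4 (0.0914) and TRIB3 (0.28). The interval of every gene spanned the median of its whole library, for each of these 3 antibodies. A difference between a gene and its library was therefore not detectable at this depth. The overexpression libraries were the deeper ones for H2A.Z, H2A.Zac and H3K27ac, and the part of depth in the lower acetyl-mark heights was not tested.

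**Figure D3:**
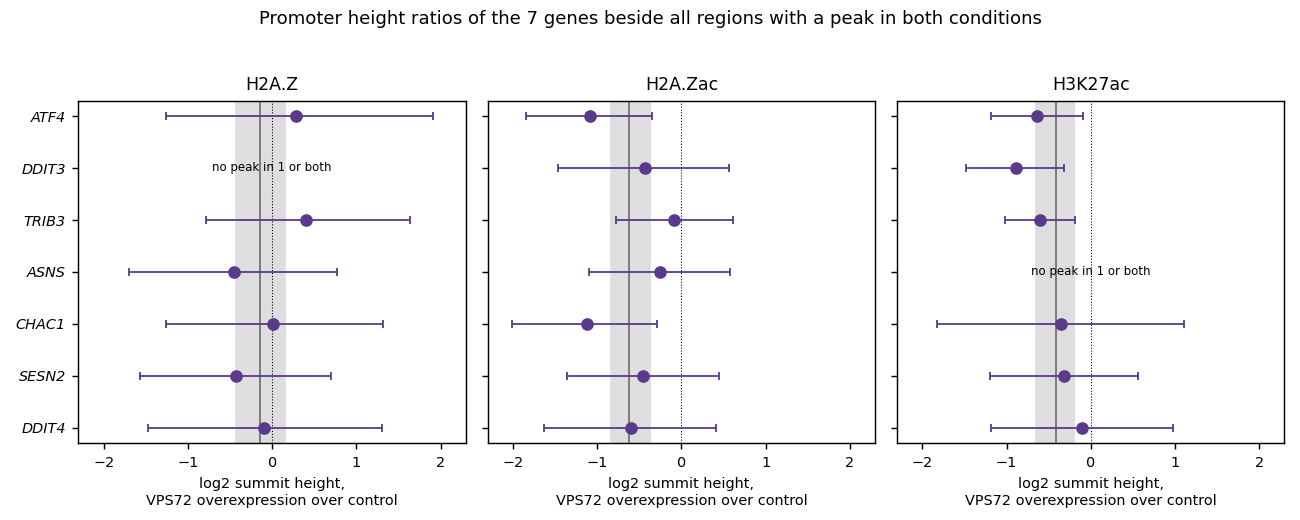
Log2 ratio of promoter summit height, VPS72 overexpression over control (horizontal axis), for each gene in 3 histone antibodies; bars are exact 95% intervals from reads, the grey line is the median of all regions with a peak in both lists and the grey band the range between their quartiles. By height H2A.Zac lies left of 0 at 7 of 7 genes and H3K27ac at 6 of 6 (TRIB3 lies right of 0 for both by the deposited fold), and the bar of every gene crosses the grey line. Of all regions with a peak in both lists, 94.4% lie left of 0 for H2A.Zac and 86.5% for H3K27ac.

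H3K4me1 ran the other way in extent. Peaks with a q of 0.05 or less covered 21.3 kb of the 7 windows with overexpression and 8.76 kb in the control. For H2A.Zac the covered length was 11.4 kb with overexpression and 18.0 kb in the control, and for H3K27ac 14.4 kb with overexpression and 16.7 kb in the control. For H2A.Z it was 6.86 kb with overexpression and 5.95 kb in the control. At that q limit the overexpression list thus covered more for H3K4me1 and H2A.Z and less for both acetyl marks. For H2A.Z this turned without the limit, at 8.22 kb with overexpression and 10.1 kb in the control. In the whole H3K4me1 lists, peaks at that limit numbered 85967 with overexpression and 20220 in the control, and in the 7 windows 22 with overexpression and 11 in the control. The whole H2A.Zac lists held 28613 with overexpression and 40407 in the control, and those of H3K27ac 24073 and 27557. Whole H2A.Z lists held 14552 with overexpression and 26927 in the control, the opposite order to the covered length at that limit. The H3K4me1 promoter peaks of CHAC1, SESN2 and DDIT4 had no overlapping control peak, which makes 3 of the 5 with overexpression, against 60% of all overexpression peaks. Over the whole windows, 8 of the 22 H3K4me1 peaks with a q of 0.05 or less had none, against 44.8%. Over all 47030 regions with an H3K4me1 peak in both lists the median ratio was 1.20, and 19.9% were higher by 1.5-fold or more. DDIT3 and TRIB3 were the only genes with a peak reaching into the promoter in both lists. Their ratios were 0.960 and 1.41, given above with the summit positions.

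FLAG peaks at promoters were present in the control list alone. Their heights were 6.58 (3 reads) at ATF4, 11.0 (5 reads) at DDIT3 and 15.3 (7 reads) at TRIB3. SESN2 had 13.2 (6 reads) and DDIT4 15.3 (7 reads). All 5 summits lay downstream of the start, from 120 bp at ATF4 to 889 bp at SESN2, and the DDIT4 peak alone had a q of 0.05 or less. All 5 were without an overlapping overexpression peak, as were 55.7% of all control FLAG peaks and 31.6% of those with a q of 0.05 or less. The overexpression library was the shallower, and 1 read in it stood for a height of 3.03, so its part in the missing promoter peaks was not tested. Untagged cells were not analysed here, so FLAG signal that does not come from VPS72 cannot be told apart.

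**Figure D4:**
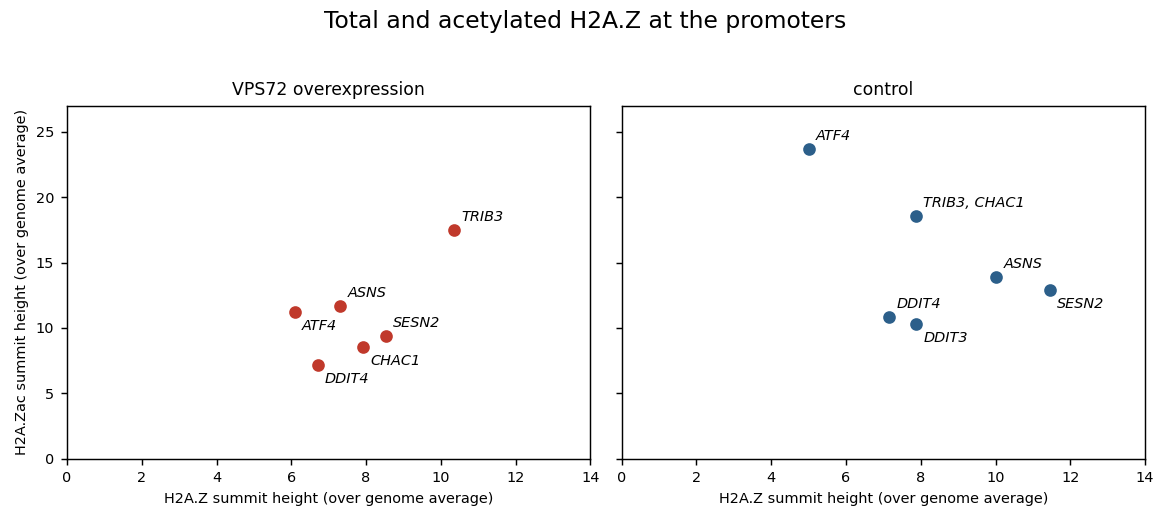
H2A.Z summit height (horizontal axis) against H2A.Zac summit height (vertical axis) at the promoters with a peak for both, VPS72 overexpression on the left and control on the right; each point is 1 gene and both axes are reads over the genome average. With overexpression the genes lie between 7.16 and 17.5 in H2A.Zac, against 10.3 and 23.7 in the control, while the H2A.Z range is 6.09 to 10.4 with overexpression and 5.01 to 11.5 in the control.

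Total and acetylated H2A.Z did not order the genes alike. In the control ATF4 had the lowest H2A.Z and the highest H2A.Zac, whereas SESN2 had the highest H2A.Z and a middling H2A.Zac. With overexpression TRIB3 was the highest for both. Neighbours in these orders differ by a few reads, and the intervals of most genes overlap. H3K27ac heights spread more widely, with ATF4, DDIT3 and TRIB3 at 19.6 to 40.6 with overexpression and 36.3 to 61.5 in the control. CHAC1, SESN2 and DDIT4 lay at 4.20 to 10.7 with overexpression and 5.34 to 13.4 in the control. These 2 sets were formed from the same heights, so their separation is no test, and ASNS had no H3K27ac peak. ASNS and CHAC1, the genes with the composite ATF4-type element in the searched upstream windows, were not among the 3 with high H3K27ac. Sequence outside those windows was not searched, so a window without a match does not show that its gene lacks the element. A link between the element and H3K27ac was not tested.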

How the data were processed

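Peak lists of 12 ChIP-seq libraries were used, grouped by sample title. The genotype labels of some overexpression libraries name other VPS genes, and the titles, which name VPS72, were followed. The submitters' processing notes name FastQC, Trimmomatic, BWA and MACS2, without versions, and peaks were called for each library. For MACS2, the sources used here give neither the control nor the thresholds. The smallest deposited −log10 p of the lists was 1.30 to 1.31. The deposited fold is a ratio of the summit to the local background, p and q were deposited as −log10 values, the authors' score is a whole number made from −log10 p, and the deposited summit offset counts bases from the peak's start. Reads came from the Poisson model of MACS2 applied to the deposited fold and −log10 p, with a tolerance of 0.002. All 201 member peaks gave whole reads; 10 had 2 solutions, of which the closest was used, among them the promoter peaks of DDIT4 for H2A.Zac in the control and TRIB3 for H3K4me1 with overexpression. On simulated data, 98.5% of 15149 summits were recovered. Depth assumes a genome of 2.7 Gb.

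The notes name hg19 and hg38. Peaks on 23 of 23 chromosomes lay within hg19 and on 14 past the end of hg38, so coordinates are hg19, 1-based. No annotation of that build was used, so the planned list of other pathway genes and the check of hepatocyte markers were not run. The members and lists were chosen with earlier results of these data known. All 7 genes are named, each with its strongest peak by q within 1 kb of the start and the strongest further one within 10 kb. Scripts ran in Python 3.11.15 with scipy 1.17.1, numpy 2.4.6, matplotlib 3.10.9 and pandas 2.3.3. Alternatives were other windows, a q limit, the highest summit, the deposited fold and height over local background.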

Additional observations from a re-analysis of the deposited data

How the results depend on the processing

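Of 105 values for single genes, 96 kept their sign under the alternatives and 9 changed it. The wider windows and the highest summit mostly picked the same peak as the reported value. Such values could not change, so the 96 overstate how stable the signs were. Of the 9, 3 were in H3K27ac and lay past counting error, 2 in H2A.Zac at TRIB3 (0.08 with the deposited fold and 0.10 over local background, from -0.09) and 4 in H3K4me1 at DDIT3 (0.08 to 0.53, from -0.06). Over local background, the log2 ratio became 0.0914 at ATF4 (from -0.63) and 0.28 at TRIB3 (from -0.60), and with the deposited fold it became 0.13 at TRIB3 and -0.07 at ATF4. Local background was higher in the control there. With the deposited fold or over local background, the H2A.Z median changed from -0.04 to 0.01. Of 70 values over the 7 genes, 53 stayed within 1.5 times the reported value or within counting error. Some of the 53 rested on the same peaks as the reported value. With a q limit of 0.05, genes with a promoter peak numbered 1 for FLAG in the control, and 3 with overexpression and 1 in the control for H3K4me1. Within 2 kb, 4 genes had an H3K4me1 peak in the control. With that q limit, peaks near the genes numbered 4 with overexpression and 5 in the control for FLAG, 9 with overexpression and 7 in the control for H2A.Z, 15 with overexpression for H2A.Zac, 8 with overexpression for H3K27ac and 11 in the control for H3K4me1. Within 5 kb they numbered 4 with overexpression and 10 in the control for FLAG, 14 with overexpression for H2A.Zac, 9 with overexpression for H3K27ac, and 15 with overexpression and 12 in the control for H3K4me1; smaller windows and stricter limits hold fewer peaks by construction. The FLAG promoter ratio has no value, since no gene had a peak in both lists. No paired analysis was possible because each group has 1 library, and for that reason no replicate could be left out. Depth limits FLAG most, with at most 10 reads per summit.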
